A study of Mus musculus with 4 samples.

Results

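The replication-dependent histone genes were examined in peak lists of accessible chromatin from mouse liver. Members were the protein-coding genes of the RefSeq table of GRCm38 whose symbols start with Hist1h to Hist4h, or with H2ac, H2bc, H3c or H4c followed by a digit. In this table all members carry the newer symbols, and 57 of 21631 protein-coding genes on chromosomes 1 to 19 and X met the rule. They comprised 17 H2A, 16 H2B, 12 H3 and 12 H4 genes. Accessibility was assayed by ATAC-seq, a method that uses the transposase Tn5 to insert adaptors into open DNA, on frozen livers of female mice aged 11 weeks. The FVB mice received standard chow. There were 2 libraries from wild-type mice (WT 1 and WT 2) and 2 from mice labelled PA (PA 1 and PA 2), described as hypomorphic Pcca-/- (A138T). The allele A138T is named in the growth protocol, which gives it for every library, WT 1 and WT 2 included. Pcca encodes the alpha subunit of propionyl-CoA carboxylase, the enzyme deficient in propionic acidemia. Each library was a list of peak positions without scores, so a gene was either called (a peak within 1 kb of either end) or not called, and the degree of opening and the read depth are unknown. The lists held 25683 to 29765 peaks.

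Histones H2A, H2B, H3 and H4 form the protein core around which DNA is wrapped, and the bulk of their supply for new chromatin comes from these clustered genes. The genes are mostly short and without introns, are transcribed chiefly in S phase under the coactivator NPAT, and yield mRNAs that end in a stem-loop in place of a poly(A) tail. Many H2A and H2B genes lie head to head and share the DNA between their starts as a promoter. The series is titled for acylation of H4K16, a lysine in the tail of the H4 protein, and the H4 genes listed here encode that protein. Most hepatocytes of the adult liver do not divide.

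A peak near an end was called in all 4 libraries for 34 of the 57 histone genes (59.6%), against 41.3% of all protein-coding genes. A further 6 were called in 1 to 3 libraries (all genes, 10.4%) and 17 in none (all genes, 48.3%). H2B genes were called in all 4 libraries most often, at 12 of 16. H2A followed with 10 of 17 and H4 with 7 of 12, and H3 was lowest with 5 of 12. Of the 57 genes, 52 are at most 1000 bp long, so the windows around both of their ends overlap. Among the 1441 protein-coding genes of at most 1000 bp, these included, 62 (4.3%) were called in all 4 libraries. The 62 hold most of the called histone genes, so the share among other short genes is lower than 4.3%. In whole tissue, a site open in few cells and a site weakly open in many cannot be told apart, and a called site says nothing of transcription.

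**Figure D1:**
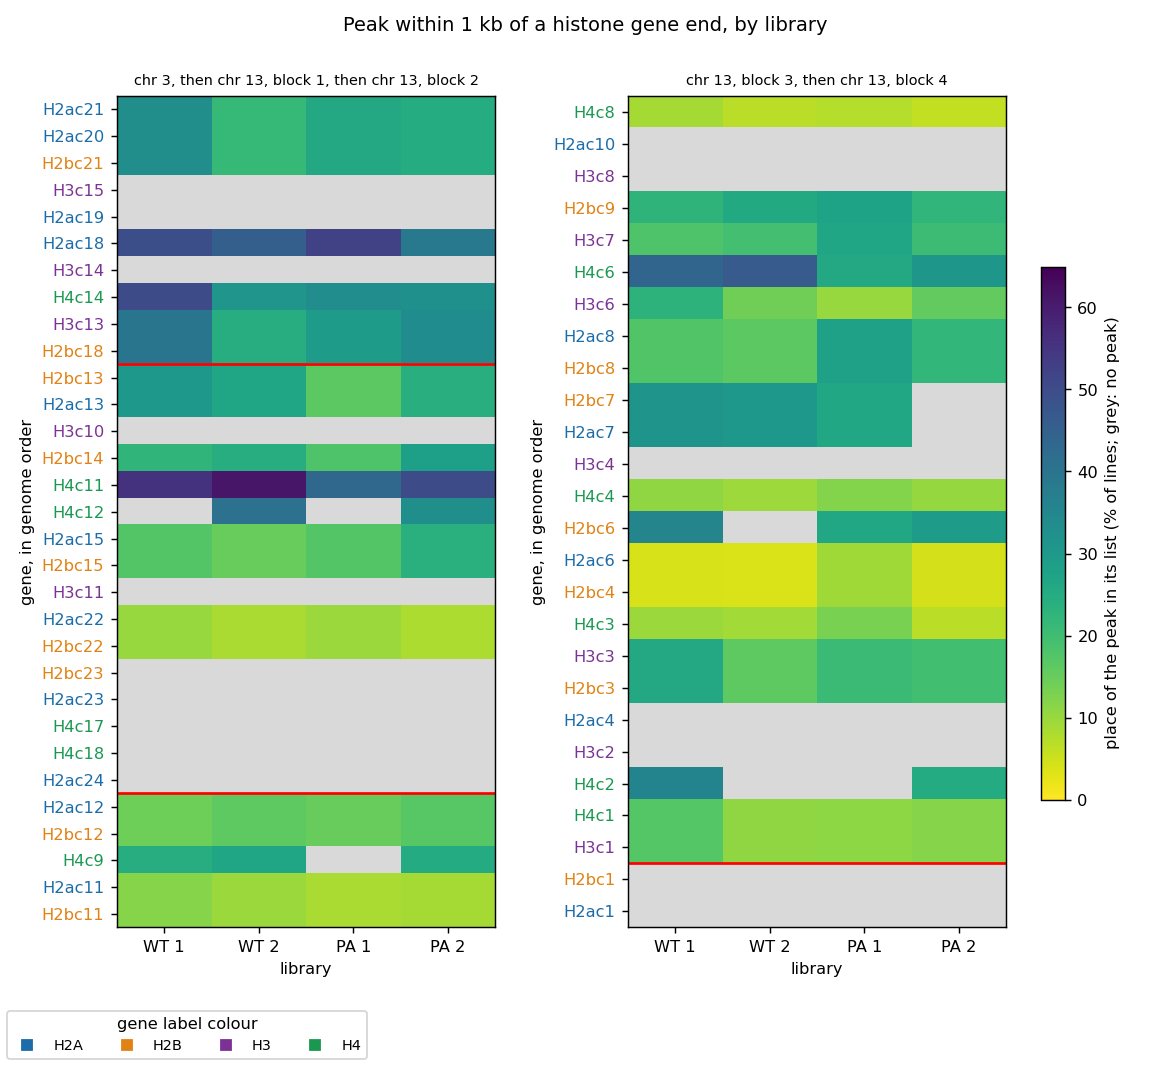
Each row is a histone gene in genome order and each column a library, and the colour gives how far down its library's list the nearest peak stands, in percent of lines (grey: no peak within 1 kb of an end). Red lines separate blocks of genes over 100 kb apart. The rows of H2ac6 and H2bc4 are the highest placed, 17 rows are grey throughout, and 6 are grey in part.

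Peaks were fewer than genes because neighbours shared them. The 40 genes with any call had 27 merged regions near their ends. Of these regions 22 were called in all 4 libraries, 3 in 3, 2 in 2 and 0 in 1. Over the whole genome 45.3% of the 38853 merged regions were called in all 4 libraries and 26.8% in 1. That total includes regions far from genes, whereas the histone regions were picked near gene ends, so the shares are not like for like. Counted by gene, 8924 protein-coding genes were called in all 4 libraries and 2252 in 1 to 3, against 34 and 6 histone genes. Among the histone regions 12 lay near 1 member, 14 near 2 and 1 near 3 (H2ac21, H2ac20 and H2bc21 on chromosome 3). Counts of genes are therefore not counts of independent sites.

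The promoters behind these calls differ between the classes. The following 8 are shown because they pair, for each class, the called gene that stood highest in the lists among those with a promoter entry with the first gene of the class, in genome order, that had no call. Each runs 5′ to 3′ on the gene's strand, from 190 bases before the annotated start to the first 10 bases of the gene, in the RefSeq sequence of GRCm38.p6. Capitals mark matches, on either strand, to TATAAA (the TATA box), CCAAT (bound by NF-Y), ATTTGCAT (the octamer of H2B promoters, bound by Oct-1), AAACACA (the H1 box) and GGTCCG (the core of the H4 element bound by HINFP).
H2ac6 (H2A, called in all 4, chr13:23683950-23684149, - strand): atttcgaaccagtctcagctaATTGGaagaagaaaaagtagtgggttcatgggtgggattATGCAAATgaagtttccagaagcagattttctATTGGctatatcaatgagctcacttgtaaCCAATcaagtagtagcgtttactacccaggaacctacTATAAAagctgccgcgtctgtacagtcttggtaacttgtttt
H2ac19 (H2A, no call, chr3:96240365-96240564, - strand): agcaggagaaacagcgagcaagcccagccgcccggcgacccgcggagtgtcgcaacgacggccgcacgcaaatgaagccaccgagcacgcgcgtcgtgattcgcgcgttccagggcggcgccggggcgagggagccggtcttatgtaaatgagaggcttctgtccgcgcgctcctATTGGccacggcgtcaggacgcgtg
H2bc22 (H2B, called in all 4, chr13:21787298-21787497, + strand): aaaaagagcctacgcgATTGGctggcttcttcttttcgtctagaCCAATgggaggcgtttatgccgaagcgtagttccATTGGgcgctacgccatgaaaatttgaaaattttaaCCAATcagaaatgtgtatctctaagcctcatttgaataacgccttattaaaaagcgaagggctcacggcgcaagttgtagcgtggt
H2bc23 (H2B, no call, chr13:21810190-21810389, - strand): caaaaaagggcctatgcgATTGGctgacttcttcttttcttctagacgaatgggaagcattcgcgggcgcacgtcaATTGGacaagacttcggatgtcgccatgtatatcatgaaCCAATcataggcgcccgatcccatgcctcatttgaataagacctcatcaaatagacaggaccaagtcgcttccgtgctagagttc
H3c6 (H3, called in all 4, chr13:23562376-23562575, - strand): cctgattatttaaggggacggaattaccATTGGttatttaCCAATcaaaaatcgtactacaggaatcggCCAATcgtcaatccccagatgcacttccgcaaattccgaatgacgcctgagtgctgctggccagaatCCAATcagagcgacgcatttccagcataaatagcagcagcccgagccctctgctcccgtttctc
H3c15 (H3, no call, chr3:96239118-96239317, - strand): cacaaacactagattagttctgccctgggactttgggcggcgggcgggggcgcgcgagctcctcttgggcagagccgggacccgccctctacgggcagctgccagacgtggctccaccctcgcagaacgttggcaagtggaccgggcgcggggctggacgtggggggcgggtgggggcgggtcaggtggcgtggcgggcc
H4c8 (H4, called in all 4, chr13:23530854-23531053, + strand): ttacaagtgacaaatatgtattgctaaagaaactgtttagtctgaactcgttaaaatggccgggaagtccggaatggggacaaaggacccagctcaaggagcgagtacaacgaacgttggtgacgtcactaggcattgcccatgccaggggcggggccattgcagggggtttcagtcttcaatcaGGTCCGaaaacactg
H4c17 (H4, no call, chr13:21811556-21811755, + strand): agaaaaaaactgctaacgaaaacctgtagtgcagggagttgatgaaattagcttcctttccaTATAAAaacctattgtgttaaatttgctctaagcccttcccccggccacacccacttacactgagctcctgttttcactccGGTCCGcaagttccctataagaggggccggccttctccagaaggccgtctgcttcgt
All but H3c15 hold capitals, and the CCAAT of H3c15 lies past the stretch shown, 14 bases after the start. Positions are counted back from the start, the base before it being -1. In H2ac6 the octamer match, on the opposite strand, begins at -130 and the TATA box at -32. In H2bc23, which had no call, CCAAT matches stand at -172, -114 and -75, close to those at -174, -112 and -76 in the called H2bc22. The GGTCCG match of H4c17 begins at -47, whereas that of H4c8 begins at -5. Among the bases shown, the share of G and C was 68% in H2ac19 and 72.5% in H3c15, against 40% in the called H2ac6 and 49% in the called H3c6. It was 48% in H2bc23 against 44.5% in H2bc22, and 48% in H4c17 against 50% in H4c8. Over the whole 300-base promoters the median was 44% in the 29 called in all libraries and 45.3% in the 17 not called. Each uncalled promoter shown shared most of its 50-base stretches with another gene's promoter, as counted below. The shares were 67.7% in H2ac19, 100% in H2bc23, 74.1% in H3c15 and 94.0% in H4c17. Of the 17 uncalled promoters 9 shared none, so those shown do not stand for all.

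Among H2A and H2B genes, which make the dimer that flanks the central H3-H4 tetramer, peaks lay in the DNA between paired starts. With starts known for 52 of the 57 genes, 9 pairs of neighbours had head-to-head starts 164 to 281 bp apart, each an H2A with an H2B gene. A region covered the middle of the gap in all 4 libraries for 6 pairs, in 3 libraries for 1 and in none for 2. The 6 were H2bc13/H2ac13, H2ac15/H2bc15, H2ac22/H2bc22, H2ac12/H2bc12, H2ac11/H2bc11 and H2ac8/H2bc8. H2bc7/H2ac7 had the region in 3 libraries, and H2bc23/H2ac23 and H2bc1/H2ac1 had none.

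The region highest in the lists lay between H2ac6 and H2bc4 on chromosome 13 (23683849 to 23684297). Counted in lines from the top of each list, the WT peaks stood at 3.99% and 3.68%, and the PA peaks at 9.29% and 4.25%. Among the 22 histone regions called in every library it came first in every list except that of PA 1, where it was number 3. H2ac22 and H2bc22 shared a region (21787173 to 21787620) that stood at 10.2%, 8.30%, 9.86% and 8.01% of the lists, in the order WT 1, WT 2, PA 1, PA 2. The region of H2ac11 and H2bc11 (22042896 to 22043301) stood at 11.7%, 9.77%, 8.24% and 8.81%. These were the next highest of the paired genes in mean place. H2ac18 on chromosome 3 stood lowest among H2A genes, at 49.5%, 45.2%, 52.2% and 38.7%. Its peak was also the farthest upstream, with the centre 208 to 252 bp before the start.

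In H2B genes the peak centre, averaged over the libraries in which it was within 250 bp of the start, lay upstream of the start in all 12 that had one, by 47 to 142 bp with a median of 113 bp. In the 10 such H2A genes it lay 19.5 to 232 bp upstream with a median of 102 bp. For the head-to-head pairs such values follow from a peak between the starts. Some of these H2B genes had no head-to-head partner among the members with known starts. They were H2bc9, with a mean of 47 bp upstream, H2bc14 with 58 bp, H2bc18 with 110 bp, H2bc6 with 115 bp and H2bc3 with 142 bp. They thus spanned the range of the class. All these distances rest on the annotated starts, whose accuracy was not tested.

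**Figure D2:**
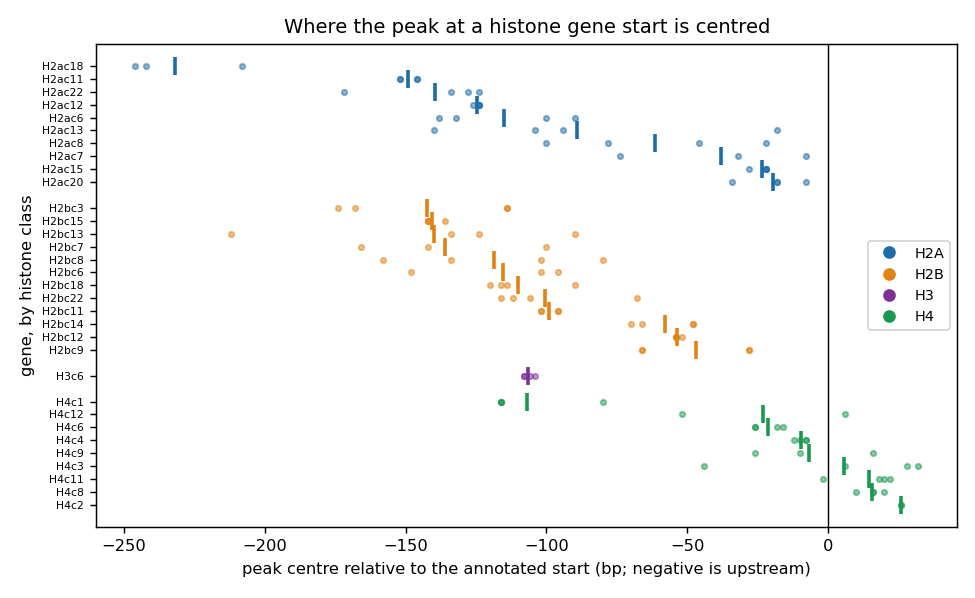
Each row is a gene with a peak centre within 250 bp of its annotated start, small points are libraries and the bar is their mean, and the horizontal axis is the distance in bp with upstream negative. H2A and H2B centres lie upstream, most H4 centres lie within 26 bp of the start, and H3c6 is the sole H3 row.

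Most peaks at H4 starts were centred close to the annotated start. Of 11 H4 genes with a known start, 9 had a peak centre within 250 bp in at least 1 library. The mean position ran from 107 bp upstream to 26 bp downstream, with a median of 6.67 bp upstream. Leaving aside H4c1, whose peak lay between it and H3c1, all 8 others were within 26 bp of the start. Distances this small depend on where the start is annotated. GGTCCG began at -5 in H4c8, -18 in H4c11 and 6 in H4c2, whose centres lay downstream, against a median of -46 in H4 genes. In H4c3, whose mean centre was also downstream, it began at -46. The accuracy of the annotated starts was not tested. H4c8 (chromosome 13, 23531044 to 23531478) stood highest of the class, at 8.88% of the WT 1 list, 6.69% of WT 2, 7.29% of PA 1 and 5.87% of PA 2. Its centre lay 10 to 20 bp downstream of the start. H4c3 stood at 9.87%, 9.07%, 13.2% and 6.65%, and H4c4 at 10.8%, 9.42%, 12.0% and 10.2%, in the same order of libraries. None of these 3 H4 genes stood below 13.2% in any list. H4c11 was lowest in mean place of all 34 genes called throughout, at 55.5%, 61.1%, 43.4% and 49.8%. In PA 1 H2ac18 stood lower, at 52.2%. H4c6 and H4c14 were also low, with mean places of 36.6% and 36.7%. The H4 class thus held both high and low places, while the median over the 34 genes was 20.6%, against 23.1% over the 8924 protein-coding genes called throughout.

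Of the 5 called H3 genes, 3 were called through the peak of a neighbour. Of the 10 with a known start, only H3c6 (chromosome 13, 23561475 to 23562385) had a peak centred within 250 bp of it, 104 to 108 bp upstream in the 4 libraries. Its peak stood at 23.1%, 14.2%, 10.1% and 15.7% of the lists of WT 1, WT 2, PA 1 and PA 2. H3c13 was called through the peak of H2bc18, whose centre lay 926 to 956 bp downstream of the H3c13 start. H3c3 was called through the peak of H2bc3, 1040 to 1100 bp upstream of its start. H3c1 shared the region beside H4c1 (23761129 to 23761564), 321 to 357 bp from its nearer end. H3c7 had a peak inside the gene (region 23544190 to 23544621) in every library. Over all protein-coding genes with a promoter entry, 37.0% had a peak centre within 250 bp of a start in all 4 libraries. The H3 count was 1 of 10, with 8 of 17 for H2A, 10 of 14 for H2B and 6 of 11 for H4.

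**Figure D3:**
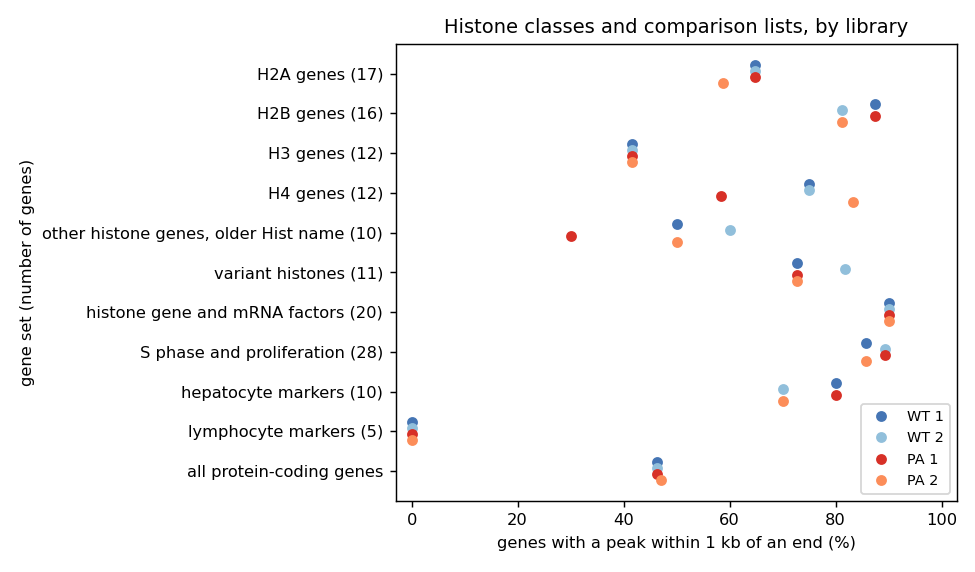
Rows are histone classes and comparison lists, with the number of genes, and each point is the percent of the genes with a peak within 1 kb of an end in 1 library. H3 genes sit at 41.7% in every library, below the other 3 classes and close to all protein-coding genes.

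The 6 genes with calls in some libraries made 5 loci, and no locus followed genotype. H4c9 was called in WT 1, WT 2 and PA 2, at 24.5%, 26.9% and 25.1% of their lists, and in PA 1 the nearest peak was 1534 bp away. H2bc7 and H2ac7 shared a region in every library but PA 2, where the nearest peak to H2bc7 was 2318 bp away. H2bc6 was called in WT 1, PA 1 and PA 2, and its nearest peak in WT 2 was at 1224 bp. H4c12 was called in WT 2 and PA 2, and H4c2 in WT 1 and PA 2. Each of these patterns included at least 1 library of each genotype.

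By library, the WT lists called 39 and 38 of the 57 histone genes, and the PA lists 37 and 38. This gave 38.5 ± 0.707 in WT and 37.5 ± 0.707 in PA (SD, n = 2), a difference of -1 (exact permutation test over libraries, two-sided, p = 0.667, where the smallest p that 2 against 2 allow is 0.333). The library ranges met at 38. Of the 57 histone genes, 0 were called in PA 1 and PA 2 with no call in WT, against 0.661% of all protein-coding genes, and 0 in WT 1 and WT 2 with no call in PA, against 0.476%. With shares this small over all genes, a count of 0 among 57 is near the background. With presence or absence alone, a difference in how open these promoters were would not be seen.

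The 17 genes with no call in any library were H3c15, H2ac19, H3c14, H3c10, H3c11, H2bc23, H2ac23, H4c17, H4c18, H2ac24, H2ac10, H3c8, H3c4, H2ac4, H3c2, H2bc1 and H2ac1. They were 7 H3, 6 H2A, 2 H2B and 2 H4 genes. The nearest peak of any library lay 1034 to 24126 bp from an end, with a median of 4617 bp. Just outside the window were H3c10 (1034 bp), H3c4 (1190 bp) and H3c14 (1197 bp), and just inside it H3c3 (840 bp). H2ac1 and H2bc1 encode the testis forms of H2A and H2B. Their shared gap of 281 bp had no peak, and the nearest lay 4617 bp from H2bc1. H2ac10 with H3c8 and H2ac4 with H3c2 were neighbours without a peak between or beside them.

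Near-identical copies were frequent among genes without a call. Each promoter of 300 bases was read in stretches of 50 bases, and those found also in another gene's promoter elsewhere were counted. Over 50% of the stretches were shared in 8 of 17 promoters of genes without a call, in 0 of 6 of those called in some libraries and in 1 of 29 of those called in all. H2bc23 shared 100% of its stretches and H2ac23 86.9% with the promoters of H4bc24 and H2ac24. The symbol H4bc24 stands in the table for a gene whose older name is Hist1h2br. H4c17 and H4c18 shared 94.0% with each other. All lie on chromosome 13 between 21806412 and 21837530, and the peak nearest to any of the 5 members there was 18792 bp away. On chromosome 3, H3c15 and H3c14 shared 74.1% and H2ac19 and H2ac18 67.7%, and of these H2ac18 alone was called. The treatment of reads that map to several places was not given in the sources used here, and the part of sequence copies in the missing calls was not tested. The other 9 genes without a call shared no such stretch, and 5 of them were H3 genes.

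**Figure D4:**
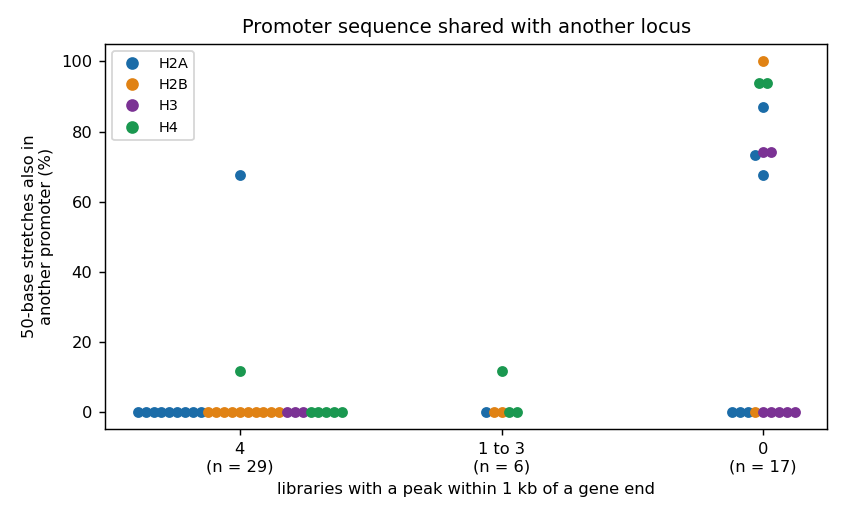
Each point is 1 of 52 histone promoters, grouped by the number of libraries with a peak near the gene, and the vertical axis is the percent of its 50-base stretches that also occur in another promoter of the table. Of 17 genes without a call, 8 lie above 50%, and of 29 called in all libraries 1 does.

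Promoter motifs differed between the histone classes. CCAAT was present on either strand in all 17 H2A, all 14 H2B and all 10 H3 promoters with an entry and in 3 of 11 H4 promoters, against 37.4% of all 32851 promoters of that length in the table. GGTCCG was present in 10 of 11 H4 promoters (90.9%) and in 2 promoters of the other classes, against 8.25% of all. In the median H4 gene it began at -46. ATTTGCAT was found in 6 of 14 H2B and 6 of 17 H2A promoters and in 0 H3 or H4 promoters, against 1.74% of all. All 6 H2B matches were on the gene's strand and all 6 H2A matches on the other. Windows of paired genes overlap, so 1 octamer can count for both partners. TATAAA was present in 30 of 52 (57.7%, all promoters 13.6%), and AAACACA in 4 of 52 (7.69%, all promoters 7.18%). None of the motifs contains another.

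Within the classes, matches were found with and without a call. CCAAT was present in all 10 called and all 6 uncalled H2A promoters and in all 3 called and all 7 uncalled H3 promoters. In the uncalled H3c15 and H3c14 the only CCAAT began 14 and 29 bases after the start. TATAAA, at any position and on either strand, was present in 8 of 10 called and 2 of 6 uncalled H2A promoters. It was present in 0 of 3 called and 4 of 7 uncalled H3 promoters. Of the called H3 genes, H3c13 and H3c3 had no peak centre within 250 bp of the start. In the uncalled H3c10 and H3c2 the match began at -31 and -29, and in H3c11 at -147. H3c4 had matches at -168 and -161, and at -32 on the other strand. Position limits the H2A contrast too. In the called H2ac21, H2ac20, H2ac22 and H2ac6 the match began at -30, -42, -33 and -32, and in the uncalled H2ac4 and H2ac1 at -41 and -32. H2ac21 was called through the peak at the H2ac20 start, whose centre lay 1004 to 1028 bp downstream of the H2ac21 start. In the called H2ac18, H2ac15 and H2ac12 the TATAAA match began 11, 21 and 15 bases after the start, and in H2ac8 at -142 on the other strand. In those first 3 the gene-strand CCAAT nearest to it began at -26, -16 and -22, against -70 in H2ac22 and -69 in H2ac6. The accuracy of the annotated H2A starts was not tested. GGTCCG was present in 5 of 6 called and 2 of 2 uncalled H4 promoters. A match is a description of letters and does not show that a factor binds there.

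**Figure D5:**
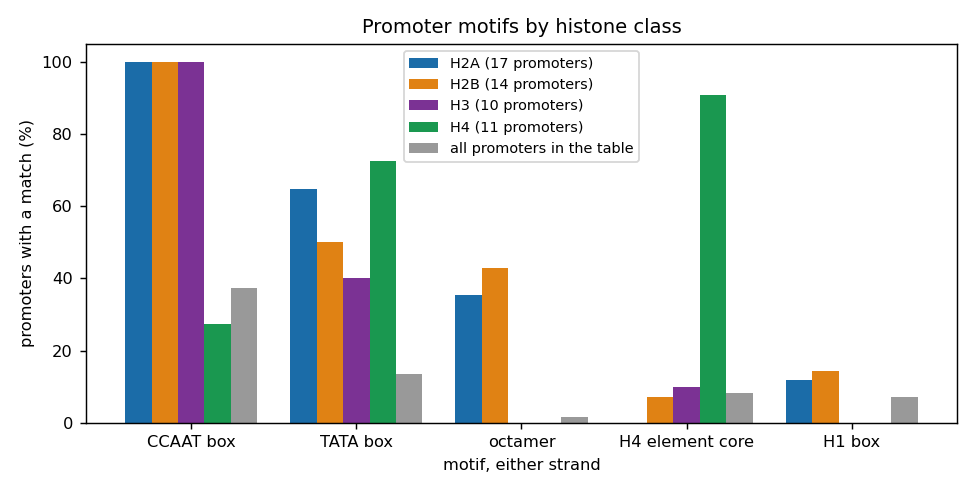
Bars give the percent of promoters of each histone class, and of all promoters in the table, that hold each motif on either strand. The CCAAT box fills the H2A, H2B and H3 bars to 100%, and the H4 element core reaches 90.9% in H4 and at most 10% in the other classes.

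The genes fell into 5 blocks. The block on chromosome 3 (96219885 to 96270192) held 10 genes, 7 called in all libraries. On chromosome 13 the blocks began at 21715711 (16 genes, 8 called in all libraries), 22035122 (5 genes, 4 called), 23531044 (24 genes, 15 called) and 23933725 (2 genes, 0 called). The block at 23531044 spans 231 kb and held 24 merged regions in all, of which 14 lay near members, 5 near other histone genes and 2 near other genes. In the blocks that began at 21715711 and 22035122 every region lay near a histone gene. The sole other protein-coding gene between the outermost members of a block was Hfe, which encodes a regulator of iron uptake and was called in WT 1 and PA 2.

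Genes of the same system that are not members were called as follows. Of 10 further histone genes with an older Hist symbol, 3 were called in all libraries, namely the linker histone genes H1f5, H1f4 and H1f2, and H1f1 and the testis form H1f6 in none. H1f3 was called in WT 1, WT 2 and PA 2. H4f16, a further H4 gene on chromosome 6, was called in WT 2 alone. Among 11 variant histones, which are made outside S phase, 8 were called in all libraries, among them H2ax, H2az1 and H3f3a, while H3f3b was called in none. Factors that transcribe histone genes or process their mRNA were called in all libraries for 18 of 20, with Npat, Slbp, which binds the stem-loop, Hinfp and Casp8ap2 among them. S phase and proliferation genes were called in all libraries for 23 of 28 (all genes, 41.3%), with Pcna, Mki67 and Top2a among them. The others were Mcm2 (called in WT 1), Rrm2 (PA 1), Tyms (WT 2 and PA 2), Nasp (WT 2 and PA 1) and Chaf1a (no call). No gene of these 4 lists was called in both libraries of one genotype and neither of the other. Over all protein-coding genes 0.661% were called so in PA and 0.476% in WT, so a count of 0 is near the background. Of 10 hepatocyte markers, 5 were called in all 4 libraries and 7 or 8 in each. Apoa1 had no peak near an end and Alb one in PA 1 only. The share called in all libraries (50%) is near the 41.3% of all genes, so these calls do not identify the tissue. Of 5 markers of each other cell type, 2 were called in all libraries for endothelium, 1 for stellate cells, and 0 for Kupffer cells, bile duct cells and lymphocytes. Lymphocyte markers had no call in any library. Among the Kupffer cell markers, Adgre1 had calls in PA 1 and PA 2 only, Cd5l had them in WT 1 and PA 2, and Clec4f, Vsig4 and Csf1r had none. Of all protein-coding genes, 0.661% had the pattern of Adgre1. No marker of the other cell types, hepatocytes included, split by genotype in either direction. A difference in cell types between the genotypes was not tested.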

How the data were processed

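ATAC-seq peak lists of 4 liver libraries were used, 1 per library. The authors deposited each list as chromosome, start and end, with no score or other unit, so the values are positions. The submitters' processing notes name HOMER 4.10, bedtools 2.31.0, Bowtie2 2.5.1, cutadapt 3.5, R 4.1.2 and SAMtools 1.17 with the build GRCm38 (mm10). The use of a peak caller's threshold, of reads with several matches and of a shift of read ends was not given in the sources used here. All but 3 or 4 peaks per list are 400 bp long.

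With Python 3.11.15, pandas 2.3.3 and SciPy 1.17.1, a gene counted as called when 1 bp or more of a library's peak lay within 1 kb of either end. Peaks that overlapped or touched were merged across libraries. Starts, strands and promoter sequences came from RefSeq (GRCm38.p6), which matched 52 of 57 members (not H2bc21, H4c14, H3c7, H2bc4 and H3c1). For H2bc6 the outermost start was used. Positions are 1-based. Place in a list is the line number as a percent of lines. The basis of the line order was not given in the sources used here, but places of shared regions were correlated between libraries (Spearman's rho 0.862 to 0.929, across regions). Place describes a peak within its own list and was not compared between genotypes, since the lists differ in length. Members named with values were those with calls in some libraries and, of those called in all, the highest and lowest in mean place. Members and lists were chosen with earlier results of these data known. The calls were tested on simulated peaks.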

Additional observations from a re-analysis of the deposited data

How the results depend on the processing

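The count of genes called in all 4 libraries was 34 and ranged from 25 to 38 over the alternatives. It was 27 when a peak had to overlap the gene end, 33 at 500 bp, 38 at 2 kb and 31 in the upper 50% of each list. The share of all protein-coding genes was not counted at these settings, so the comparison with all genes was not tested there. As chosen after seeing the data, 25 of 52 had a peak centre within 250 bp of the start, against 37.0% of genes with a promoter entry. The count was 33 of 48 without the members whose promoters were mostly shared, also chosen after seeing the data. Without 1 library it ranged from 34 to 36. The PA minus WT difference was -1 and kept its sign except that it was 0 in the upper 50% of each list. It ranged from -1.5 to -0.5 without 1 library, and was -2.5 with the 10 other histone genes added. The count of genes restricted to a genotype was 0. It was 1 in the upper 50% of each list (H4c11, in PA). Leaving out a library loosens the condition, and the count then ranged from 0 to 2, with H2bc6 without WT 1, H2bc7 and H2ac7 without PA 1, and H4c9 without PA 2. Regions near members numbered 25 to 28 around the 27 found, and 35 with the other histone genes added. On the gene's strand alone the octamer was found in 6 promoters in place of 12, by the construction of that search. No paired analysis was possible because nothing in the labels ties libraries of the same replicate number together. The PA minus WT differences within the numbers 1 and 2, the only 2 pairs, were -2 and 0. Depth is unknown, so an absent peak may lie under the caller's threshold.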
